A study of Sus scrofa with 18 samples.

Results

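The endometrium of pregnant Yorkshire gilts was compared between gestational day 26 (GD26) and gestational day 15 (GD15), with 3 arrays of GD26 and 3 arrays of GD15 out of the 18 arrays of the series. The series measured endometrial RNA of Yorkshire and Meishan gilts, a less and a more prolific pig breed, on GD15, GD26 and GD50 with the Affymetrix porcine GeneChip. Gilts were mated to boars of their own breed, and 2 gilts per breed and day were slaughtered. Each array took a mixture of RNA from both gilts, made at matched sites of attachment, and 3 such sites were used for a day. All 3 arrays of a day therefore hold the same 2 gilts. P-values given here thus rest on how the site pools varied, with no measure of how gilts vary, and the day cannot be told apart from the gilts slaughtered on it. The array reads a transcript with 1 or more groups of short probes, called probe sets, and the deposited value of a probe set is a log2 intensity. A probe set entered the comparison if it exceeded an intensity of 100 (6.64 on the log2 scale) in 3 or more of the 6 arrays, as 9117 of the 23999 non-control probe sets did, for 4235 genes with a symbol of their own. The comparison asks how the endometrium differs between the time when conceptuses attach and the days that follow.

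The pig placenta does not invade. The conceptuses elongate, lie against an intact uterine luminal epithelium and attach to it, and the trophoblast, the outer cell layer of the conceptus, is fed at first by the secretions of the uterine glands. These secretions, called histotroph, carry proteases and their inhibitors, binding proteins for vitamins and iron, and growth factors, and progesterone and conceptus estrogens act on their release. Pig conceptuses also release interferons around the time of attachment, and the endometrium responds with interferon-stimulated genes and genes of the major histocompatibility complex, which in the pig is called SLA.

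The GD26 arrays were dimmer for pig probe sets than the GD15 arrays. Among the 9117 probe sets the median was 8.19, 8.01 and 7.93 in the GD26 arrays, against 8.44, 8.44 and 8.41 in the GD15 arrays, and 7113 to 7596 of these probe sets lay above 100 on GD26, against 8355 to 8365 on GD15. The 18 hybridization control probe sets, which read bacterial and phage transcripts added to each sample, averaged 11.71, 13.05 and 13.13 on GD26, against 10.43, 10.57 and 11.11 on GD15. The lowest correlation between arrays of a day was 0.950 on GD26 and 0.986 on GD15. The median probe set changed by -0.51 on the log2 scale, GD26 minus GD15, and centring each array on its median added 0.386 to every change. A probe set is therefore said to have risen or fallen only where limma gave a Benjamini-Hochberg adjusted p of at most 0.05 and a change of at least 2-fold both as deposited and after median centring. Changes are given as deposited, and are to be read against the median of -0.51. Epithelial and stromal markers were checked on both days. CDH1, the adhesion protein of epithelial cells, measured 13.04, 13.06 and 13.09 on GD26, against 12.76, 12.86 and 12.83 on GD15, and DCN, a proteoglycan of stroma, measured 13.52, 13.67 and 13.51 on GD26, against 13.44, 13.24 and 13.23 on GD15. Some other markers of these cells were lower or dim: KRT18, an epithelial keratin, measured 10.42, 10.85 and 10.86 on GD26, against 11.69, 11.74 and 12.02 on GD15, without a call, and MUC1, an epithelial mucin, lay under 100 on every GD26 array and above it on every GD15 array. COL3A1, a stromal collagen, lay under 100 on every array and did not pass the filter. KRT19, a further epithelial keratin, rose, with 11.79, 11.26 and 11.21 on GD26, against 9.07, 9.22 and 9.02 on GD15. It is left out of the counts of named genes given below, as are APOA1, SLA-3 and CLDN5.

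In all, 1324 of the 9117 probe sets rose (14.5%) and 2026 fell (22.2%). Counted as genes, 548 of 4235 rose (12.9%) and 792 fell (18.7%). Counts in the gene lists below are to be read against these shares. All 3 GD15 arrays lay under an intensity of 100 for 571 of the probe sets that rose, and all 3 GD26 arrays did so for 903 of those that fell. A gene under 100 on every array of 1 day could pass the filter only by being brighter on the other, so that counts and medians over the listed genes past the filter describe those genes and give no support for a direction. Where the dimmer day lay wholly under 100, the fold is written as at least that reached with 100 standing for that day. Changes of more than 10-fold numbered 314 upward and 256 downward among the probe sets that were called. The arrays of the days did not overlap for 76.3% of all probe sets past the filter, so that separation of the days by itself marks no gene out. Falls were 60.5% of the calls, and this split moved with the scaling: the values as deposited gave 1324 rises and 2987 falls, and cyclic loess gave 1791 rises and 1401 falls.

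**Figure D1:**
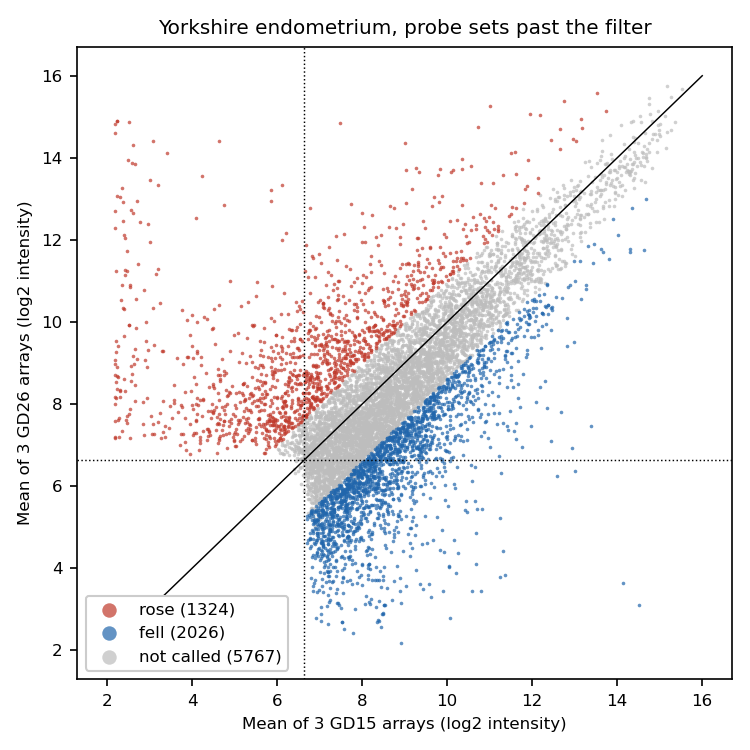
Mean log2 intensity of the 3 GD26 arrays (vertical axis) against that of the 3 GD15 arrays (horizontal axis) for the 9117 probe sets past the filter, 1 point each. Red points rose (1324), blue points fell (2026) and grey points were not called; the dotted lines mark an intensity of 100, and the solid line marks equal values. A column of red points at the far left has GD15 means near the lowest values of the array.

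The largest rise was that of PLET1, a surface protein of the trophoblast, with 14.98, 14.83 and 14.89 on GD26, against 2.32, 2.19 and 2.19 on GD15. DPPA5, a gene best known from pluripotent cells of the mouse, measured 14.78, 14.49 and 14.52 on GD26 and 2.18 on each GD15 array, the lowest value on the array. These genes were at least 306-fold and at least 248-fold higher on GD26 (limma, adjusted p = 2.5e-11 for each). SERPINA3-2, a plasma-type protease inhibitor of the serpin family, reached 14.73, 14.96 and 14.91 on GD26, against 2.82, 2.21 and 2.49 on GD15, and was at least 299-fold higher (adjusted p = 1.9e-08). PAG6, a pregnancy-associated glycoprotein, an aspartic-protease relative that the trophoblast makes, reached 14.58, 14.14 and 14.23 on GD26, against 2.59, 2.67 and 2.59 on GD15. For each of these 4 genes the GD26 arrays lay within 0.5 log2 of each other, and no GD15 array lay above the bottom of the scale.

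The other 6 of the 10 largest rises were of different kinds. CBR1, a carbonyl reductase that acts on prostaglandins and steroids, measured 13.49, 13.18 and 13.13 on GD26, against 2.28, 2.58 and 2.18 on GD15, at least 98.5-fold higher. AQP8, a water channel, measured 13.32, 13.44 and 13.22 on GD26, against 5.70, 6.09 and 6.55 on GD15, at least 103-fold higher. RNASE1, a secreted ribonuclease, measured 13.41, 13.02 and 13.23 on GD26, against 6.07, 5.60 and 5.89 on GD15, at least 95.4-fold higher. All GD15 arrays of these genes lay under 100, and all GD26 arrays were among the bright values of the array. TMEM45A and LOC100523945 rose by at least 79.4-fold and 84.9-fold, and HBE1, an embryonic globin, is described with the conceptus genes below.

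The largest falls were those of S100A9, PSAT1, SLC28A3 and STC1, ranked after values under 100 had been set to 100. S100A9, a calcium-binding protein of neutrophils and stressed epithelia, measured 5.81, 6.84 and 6.47 on GD26, against 13.50, 13.03 and 12.49 on GD15, a change of -6.63 ± 0.33 (SE, adjusted p = 2.6e-07). SLC28A3, a nucleoside transporter, measured 6.15, 6.73 and 5.90 on GD26, against 12.51, 12.57 and 12.67 on GD15, a change of -6.32 ± 0.44 (adjusted p = 2.4e-06). STC1, stanniocalcin, a secreted regulator of calcium and phosphate handling, measured 7.22, 6.15 and 7.41 on GD26, against 12.70, 12.92 and 13.19 on GD15, a change of -6.01 ± 0.38 (adjusted p = 1.2e-06). The GD15 arrays of these genes were bright, and the GD26 arrays lay around the intensity of 100. GBP1, a guanylate-binding protein induced by interferon, and CDO1, which oxidizes cysteine, changed by -4.87 ± 0.25 and -4.45 ± 0.54 (adjusted p = 3.1e-07 and 8.2e-05). FXYD2, a regulator of the sodium pump, measured 2.71, 4.06 and 4.76 on GD26, against 11.45, 11.28 and 11.33 on GD15, at least 26.2-fold lower. NAAA, a lysosomal amidase, measured 4.38, 3.69 and 3.29 on GD26, against 11.06, 11.21 and 11.43 on GD15, at least 24.1-fold lower. METTL17 and LOC100526084 completed the 10, with changes of -4.81 and -5.34.

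**Figure D2:**
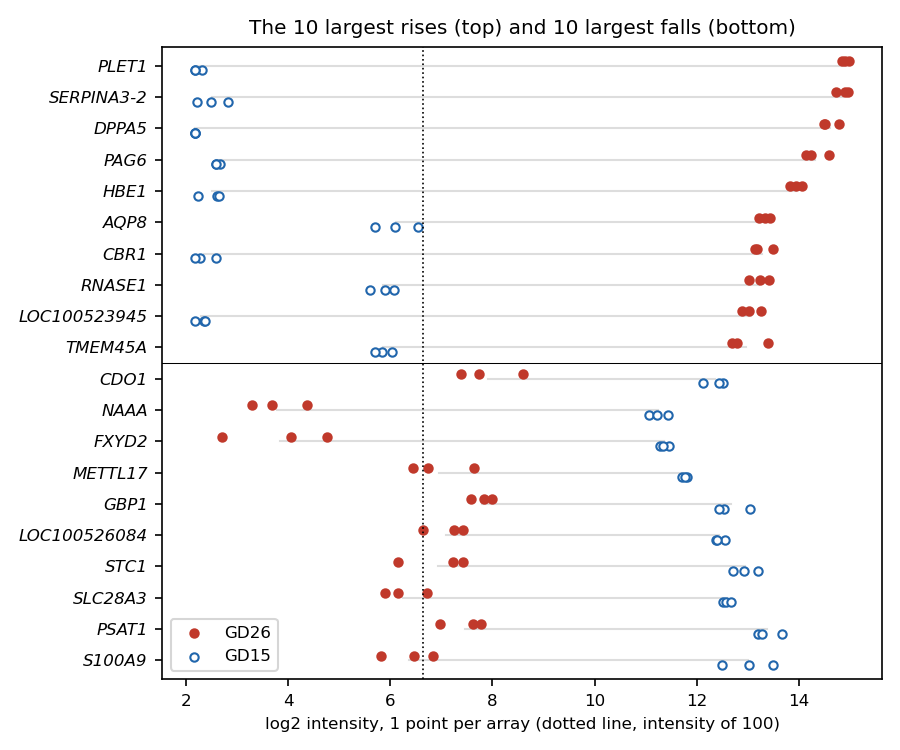
Log2 intensity (horizontal axis) of the 10 genes with the largest rise (upper rows) and the 10 with the largest fall (lower rows), 1 point per array, with GD26 filled and GD15 open; the dotted line marks an intensity of 100. All GD15 points of the upper genes lie left of the line, and the GD15 points of the lower genes lie between 11.06 and 13.66.

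Of 22 listed trophoblast and placenta genes on the array 15 passed the filter, and 11 of these rose, none fell and 4 were not called. For 10 of the 11 all GD15 arrays lay under 100, so that these genes passed the filter through GD26 alone and could not have been called as falls. Besides PLET1 and PAG6, transcription factors of the trophoblast were among them: GATA3 measured 10.49, 10.65 and 10.53 on GD26, against 2.88, 2.55 and 2.65 on GD15, at least 15.0-fold higher. PPAG3, a further pregnancy-associated glycoprotein, measured 11.34, 10.98 and 11.14 on GD26, against 2.18, 2.54 and 2.54 on GD15, at least 22.7-fold higher. HAND1, which acts in trophoblast and extraembryonic mesoderm, measured 7.81, 7.90 and 6.94 on GD26, against 2.45, 2.45 and 2.47 on GD15, at least 1.87-fold higher. The GD15 values of these 3 genes stood at the bottom of the scale. PLAC1, a placental surface protein, and TEAD4, which specifies trophoblast in the mouse, rose as well, by at least 6.41-fold and at least 2.76-fold. The call of HAND1 is lost when values under 100 are set to 100. DLX5 was bright on both days, with 11.40, 11.46 and 10.99 on GD26 and 10.96, 11.14 and 11.18 on GD15, and GATA2 and CYP19A3, an aromatase gene of the pig, changed by -0.05 ± 0.21 and -0.31 ± 0.18 and were not called. The summed intensity of the 15 genes was 84573 to 103812 on GD26, against 3063 to 3774 on GD15. In pooled tissue, more cells of a type and more RNA per cell cannot be told apart, and how much attached conceptus tissue the GD26 samples held was not tested.

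Red blood cell genes were measured beside the conceptus genes. HBE1, the embryonic epsilon globin, measured 13.81, 14.06 and 13.94 on GD26, against 2.61, 2.24 and 2.66 on GD15, at least 157-fold higher (adjusted p = 1.1e-10). HBB, the adult beta globin, measured 7.61, 6.44 and 6.80 on GD26, against 8.31, 8.23 and 7.58 on GD15, and was not called. ALAS2, the heme enzyme of red cell precursors, rose to 6.84, 8.09 and 7.82 on GD26, against 4.76, 4.81 and 5.03 on GD15, a call that is lost when values under 100 are set to 100. Thus the embryonic globin was bright on GD26 alone, while the adult globin overlapped between the days in 1 array. The summed intensity of these 3 genes, of 8 on the array, was 14697 to 17475 on GD26, against 230 to 350 on GD15. Of the liver-type plasma protein genes that yolk sac also makes, 6 of 27 on the array passed the filter. SERPINA3-2 and APOE, a lipid carrier, rose, and none fell. Of the genes that define that list, AFP, TTR and ALB stood between 2.18 and 2.44 on all 6 arrays. APOA1, which defines it too, was bright on both days, with 10.99, 11.30 and 11.32 on GD26 and 11.94, 11.56 and 11.82 on GD15. It was not called.

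Steroid hormone synthesis and metabolism genes past the filter included more rises than falls. Of 28 on the array 19 passed the filter, 13 of these rose, 5 of them with every GD15 array under 100, and 2 fell, with a median change of 2.09. The enzymes that make progesterone from cholesterol were at the bottom of the scale on GD15. STAR, which carries cholesterol into the mitochondrion, had intensities, on the linear scale, of 2050, 955 and 1065 on GD26, against 5.85, 5.44 and 4.61 on GD15. CYP11A1, which cuts the cholesterol side chain, measured, on the log2 scale, 9.06, 9.37 and 8.52 on GD26 and 2.18 on each GD15 array. HSD3B1, which forms progesterone, measured 10.98, 10.89 and 10.66 on GD26, against 2.38, 2.94 and 2.29 on GD15. The lower bounds of their rises were 12.8-fold, 5.06-fold and 18.4-fold. FDX1, which passes electrons to CYP11A1, rose by 1.42 ± 0.24 from an already bright level (adjusted p = 5.7e-04).

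Enzymes that inactivate steroids rose beside those that make them. SULT1E1, which sulfates estrogens, measured 12.24, 11.87 and 11.73 on GD26, against 3.14, 3.38 and 2.52 on GD15, at least 39.5-fold higher. HSD17B2, which oxidizes estradiol to estrone, measured 13.57, 13.83 and 13.80 on GD26, against 9.38, 10.02 and 10.09 on GD15, a change of 3.91 ± 0.24 (adjusted p = 1.1e-06). HSD11B2, which inactivates cortisol, measured 11.45, 11.14 and 10.69 on GD26, against 6.88, 6.69 and 7.09 on GD15, a change of 4.21 ± 0.31 (adjusted p = 3.6e-06). HSD11B1, which regenerates cortisol, changed by 2.42 ± 0.20, so that both directions of this conversion rose. CYP3A39, a drug and steroid hydroxylase, was at least 78.2-fold higher. UGT2B31, a glucuronidating enzyme, fell by at least 3.83-fold, and HSD17B8 changed by -1.57 ± 0.30 (adjusted p = 0.0014). Of the hormone receptors and their partners, 7 of 17 on the array passed the filter: FKBP4, a chaperone of the progesterone receptor, rose, and 4 fell. FKBP5, a glucocorticoid-induced partner of steroid receptors, averaged 7.53 ± 0.37 on GD26 and 11.31 ± 0.27 on GD15 (SD, n = 3 each), a change of -3.77 ± 0.23. The probe sets of PGR, the progesterone receptor, ESR1, the estrogen receptor, and PRLR, the prolactin receptor, did not pass the filter, and their levels on these arrays are not resolved.

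Genes of uterine secretion moved in both directions. Of 33 on the array 30 passed the filter, 11 rose and 6 fell, with a median change of 0.58. GRN, a secreted growth factor precursor, measured 14.74, 14.75 and 14.78 on GD26, against 10.61, 10.68 and 10.86 on GD15, a change of 4.04 ± 0.20 (adjusted p = 2.5e-07). SPP1, osteopontin, a ligand of integrins at the attachment surface, measured 15.36, 15.44 and 15.37 on GD26, against 11.86, 13.62 and 12.78 on GD15, a change of 2.64 ± 0.36 (adjusted p = 1.6e-04). SLPI, a protease inhibitor of mucosal secretions, measured 15.47, 15.63 and 15.66 on GD26, against 13.59, 13.35 and 13.66 on GD15, a change of 2.05 ± 0.15 (adjusted p = 3.6e-06). The GD26 arrays of these genes were among the brightest of the whole array and close together, while GD15 arrays of SPP1 spread over more than 1 log2. The lysosomal cathepsins did not move as 1 group: CTSZ, CTSC, CTSD and CTSB rose by 3.57, 2.30, 1.53 and 1.51, CTSH and LGMN changed by 0.92 and 0.58 without a call, and CTSV and CTSS changed by -0.76 and -1.31 without a call. GUSB, a lysosomal glucuronidase, rose by 3.00 ± 0.19. ACP5, uteroferrin, the iron-carrying phosphatase of pig histotroph, was bright on both days, with 14.69, 14.97 and 15.02 on GD26 and 14.39, 14.34 and 14.38 on GD15, and RBP4, the retinol carrier, was too, with 15.19, 15.39 and 15.33 on GD26 and 14.55, 14.76 and 14.91 on GD15. Neither was called.

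The falling secretory genes included ligands and surface mucins. SAL1, a salivary-type lipocalin that binds small lipids, measured 3.33, 3.33 and 3.71 on GD26, against 11.54, 10.69 and 10.15 on GD15, at least 17.8-fold lower. FGF7, a growth factor that in the pig uterus is made by luminal epithelium and acts on epithelium and trophoblast, measured 2.58, 4.58 and 3.67 on GD26, against 9.26, 9.40 and 9.45 on GD15, at least 6.63-fold lower. MUC1, a mucin of the luminal surface that hinders adhesion, measured 6.15, 6.07 and 6.39 on GD26, against 8.42, 8.28 and 8.46 on GD15, at least 3.34-fold lower. All GD15 arrays of these 3 genes exceeded 100 and all GD26 arrays lay under it. MUC4 and CLU, a secreted chaperone, changed by -2.49 ± 0.23 and -2.59 ± 0.32.

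The insulin-like growth factors changed in opposite directions. Of 13 on the array 6 passed the filter, of which 4 rose and 2 fell. IGF2, the placental and fetal growth factor, measured 13.06, 12.30 and 13.15 on GD26, against 4.75, 4.65 and 4.88 on GD15, at least 73.3-fold higher, and all 6 of its probe sets past the filter rose. IGF1, which the endometrium makes around attachment, measured 4.01, 3.84 and 4.14 on GD26, against 8.14, 8.31 and 8.01 on GD15, at least 2.84-fold lower. Neither ligand overlapped between the days, but the same held for 76.3% of all probe sets past the filter. Each ligand lay wholly under 100 on its dimmer day and passed the filter through the other day alone. The binding protein IGFBP2 measured 13.77, 13.61 and 13.59 on GD26, against 9.38, 9.09 and 9.53 on GD15, a change of 4.32 ± 0.18 (adjusted p = 9.0e-08), and IGFBP5 rose by at least 13.4-fold with GD26 arrays of 9.09, 10.74 and 11.34. The receptor IGF1R lay just above 100 on GD26, with 6.85, 6.68 and 6.85, against 3.99, 3.88 and 4.0 on GD15, and its call is lost when values under 100 are set to 100. HTRA1, a protease that cleaves binding proteins, changed by -1.83 ± 0.23 (adjusted p = 9.0e-05).

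Genes of the bone morphogenetic protein (BMP), activin and WNT pathways included more falls than rises. Of 44 on the array 26 passed the filter, 2 rose and 10 fell, with a median change of -1.0. For 4 of the 10 falls every GD26 array lay under 100. Among ligands, BMP4 measured 4.80, 5.19 and 5.19 on GD26, against 8.72, 8.35 and 8.16 on GD15, at least 3.40-fold lower. Among receptors, BMPR1B, a type I BMP receptor, measured 6.15, 5.82 and 4.65 on GD26, against 8.05, 8.0 and 7.83 on GD15, at least 2.49-fold lower, a call that is lost when values under 100 are set to 100 and with cyclic loess (-0.84). Among targets, ID1, which BMP signals induce, measured 9.60, 8.21 and 9.31 on GD26, against 11.19, 10.75 and 11.13 on GD15, a change of -1.98 ± 0.33 (adjusted p = 5.4e-04). A ligand, a receptor and a target thus were called lower on GD26, the ligand and the receptor with every GD26 array under 100. The inhibitors were split: FST, follistatin, which binds activin, measured 4.21, 2.68 and 2.60 on GD26, against 9.10, 8.69 and 8.93 on GD15, at least 4.80-fold lower, and the WNT inhibitor DKK1 changed by -3.53 ± 0.54, while BAMBI, a decoy receptor, rose by 2.32 ± 0.54 (adjusted p = 0.0040). The signal carriers SMAD1 and SMAD4 changed by -1.19 ± 0.29 and -0.71 ± 0.26 and were not called. FOXA2, the transcription factor of uterine glands, changed by -1.80 ± 0.42 (adjusted p = 0.0040).

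Interferon-response genes included more falls than rises. Of 31 on the array 23 passed the filter, 3 rose and 10 fell, with a median change of -0.84. For 3 of the 10 falls every GD26 array lay under 100. GBP1 measured 7.84, 7.99 and 7.58 on GD26, against 13.04, 12.53 and 12.44 on GD15, and its relative GBP2 was at least 9.19-fold lower. IRF1, a transcription factor that interferon gamma induces, measured 7.69, 8.89 and 8.09 on GD26, against 11.06, 10.99 and 10.83 on GD15, a change of -2.73 ± 0.27 (adjusted p = 2.3e-05). CXCL9, a chemokine induced by interferon gamma, measured 4.42, 5.75 and 4.25 on GD26, against 8.57, 8.83 and 10.34 on GD15, at least 6.07-fold lower. Each of these was higher in every GD15 array, though the days did not overlap for 76.3% of all probe sets past the filter. The antiviral genes MX1 and ISG15 changed by 0.59 ± 0.19 and 0.51 ± 0.37, and IFIT1 and IFIT3 by -0.84 ± 0.29 and -0.76 ± 0.18, all without a call. RSAD2, an antiviral enzyme, rose by 1.72 ± 0.45 (adjusted p = 0.0079), and OAS1, a sensor of double-stranded RNA, changed by -2.16 ± 0.39 (adjusted p = 9.9e-04). IFI30, a thiol reductase of antigen-processing vesicles, rose by 1.85 ± 0.21. The probe set of IFNG itself did not pass the filter.

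Antigen presentation genes past the filter included more falls than rises. Of 22 genes on the array 19 passed the filter, 12 of these fell and 2 rose, with a median change of -1.5. The class II genes SLA-DRA and SLA-DMB measured 10.41, 10.86 and 10.80, and 7.40, 8.28 and 7.16 on GD26, against 12.31, 12.04 and 12.48, and 10.18, 9.80 and 10.21 on GD15. Their changes were -1.59 ± 0.19 and -2.45 ± 0.31 (adjusted p = 6.8e-05 and 1.0e-04). TAP1, which carries peptides to class I molecules, measured 7.84, 8.14 and 8.16 on GD26, against 10.92, 10.40 and 10.37 on GD15, a change of -2.52 ± 0.24 (adjusted p = 1.9e-05). SLA-6, a class Ib gene, changed by -2.50 ± 0.17. The classical class I gene SLA-2 stayed bright, with 12.91, 13.02 and 13.05 on GD26 and 14.00, 13.92 and 13.94 on GD15, and was not called. SLA-3, a further class I gene, fell, with 11.54, 12.05 and 12.12 on GD26, against 13.48, 13.34 and 13.54 on GD15. Its change was -1.55 ± 0.19 (adjusted p = 8.3e-05). The immunoproteasome genes PSMB8, PSMB10, PSME1 and PSME2 fell by 1.5, 1.81, 1.75 and 1.5. The calls of SLA-DRA, PSMB8 and PSME2 were lost without GD26 array 1, at changes of -1.45, -1.24 and -1.42, and that of PSMB8 also without GD15 array 1 (-1.31). B2M, the light chain of class I molecules, changed by -0.60 ± 0.15. SLA genes are close copies of each other, so that their probe sets may share signal. CD74, the class II chaperone, went the other way, with 10.81, 11.37 and 11.16 on GD26, against 9.14, 8.82 and 9.20 on GD15, a rise of 2.06 ± 0.19 (adjusted p = 1.4e-05).

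**Figure D3:**
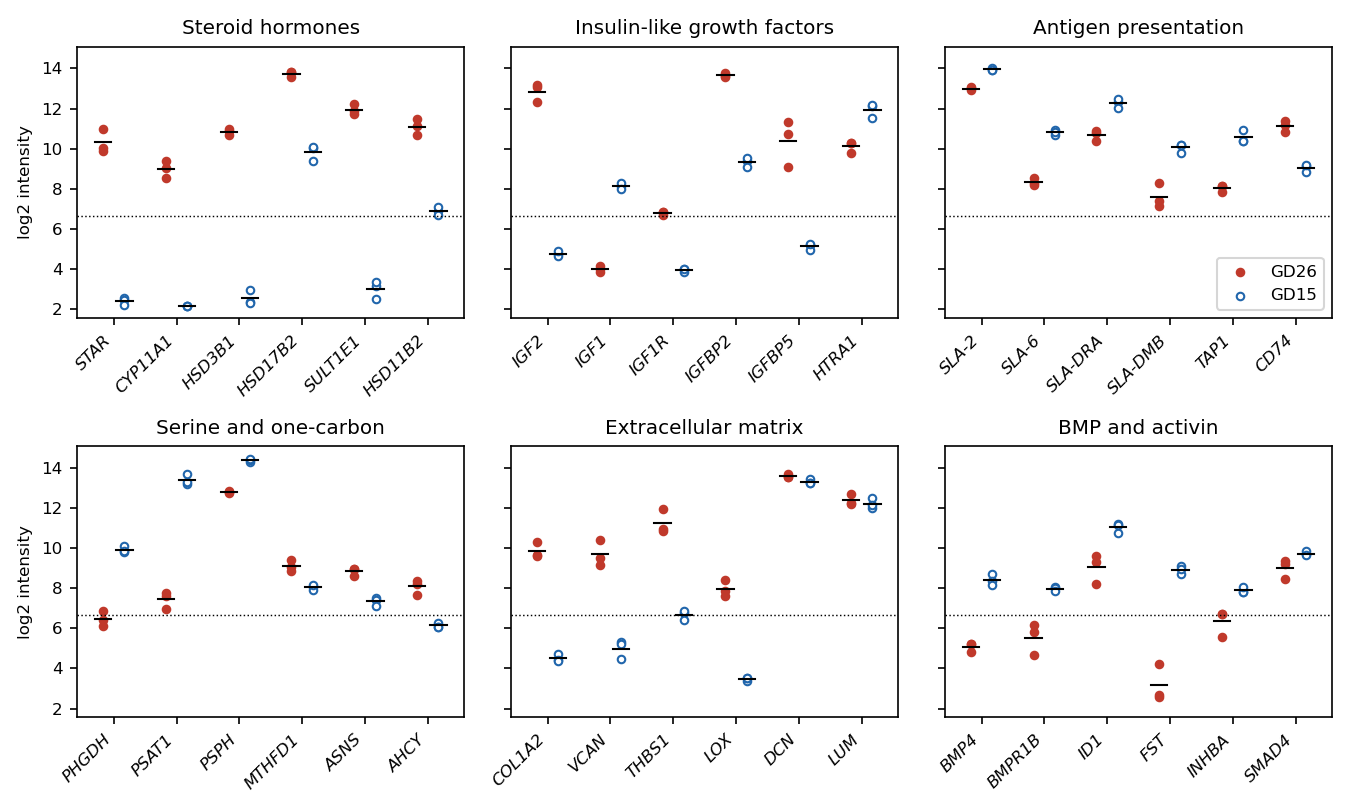
Log2 intensity (vertical axis) of 6 genes in each of 6 lists, 1 point per array with GD26 filled and to the left of GD15, which is open; short bars are group means and the dotted line marks an intensity of 100. STAR, CYP11A1, HSD3B1 and SULT1E1 lie near the bottom of the scale on GD15, SLA-6, SLA-DRA, SLA-DMB and TAP1 fell on GD26 while CD74 rose, and DCN and LUM lie near the same level on both days.

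Cytokines and the leukocyte genes shifted in part. Of 50 cytokine and chemokine genes on the array 17 passed the filter, 5 rose and 4 fell, with a median change of -0.56. LIF, a cytokine of uterine receptivity in the mouse, measured 8.56, 8.68 and 8.14 on GD26, against 3.09, 3.52 and 4.08 on GD15, at least 3.52-fold higher. IL6, whose receptor shares a signalling chain with that of LIF, measured 8.90, 8.19 and 7.99 on GD26, against 2.18, 2.30 and 2.19 on GD15, at least 3.29-fold higher. IL11RA, a receptor chain of that family, measured 5.07, 3.81 and 4.29 on GD26, against 9.86, 10.11 and 9.84 on GD15, at least 9.79-fold lower. The 2 ligands and the receptor chain thus moved apart. CXCL14, an epithelial chemokine, measured 13.69, 13.76 and 13.77 on GD26, against 7.32, 11.07 and 9.44 on GD15, with GD15 arrays nearly 4 log2 apart and a change of 4.46 ± 0.73 (adjusted p = 5.1e-04). IL15, which sustains natural killer cells, was at least 1.66-fold lower, a call that is lost when values under 100 are set to 100 (-0.73) and with cyclic loess (-0.99). Of 30 macrophage and neutrophil genes on the array 13 passed the filter, 1 rose (C1QA) and 4 fell, with summed intensities of 6178 to 7891 on GD26, against 17677 to 21238 on GD15. Without S100A9, which stressed epithelia make too, the sums were 6089 to 7777 on GD26, against 9327 to 12704 on GD15. TLR4, the receptor for bacterial lipopolysaccharide, changed by -2.20 ± 0.16. PTPRC, CD3E and CD14, which define leukocytes, did not pass the filter, and the part of leukocyte numbers in these results was not tested. Of 32 lymphocyte and cytotoxic cell genes on the array 9 passed the filter, 1 rose and 3 fell. The one that rose was GATA3, given above among the trophoblast genes. JCHAIN, which joins secreted antibodies, measured 4.91, 4.72 and 4.25 on GD26, against 9.26, 9.27 and 8.83 on GD15, at least 5.56-fold lower.

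Complement and secreted defense genes were split as well. CFB, which starts the alternative complement pathway, measured 9.73, 9.69 and 8.98 on GD26, against 4.54, 4.55 and 4.54 on GD15, at least 7.08-fold higher, and CD55, which protects host cells from complement, rose by 3.04 ± 0.23. CFD, the protease that activates CFB, measured 9.12, 9.53 and 9.88 on GD26, against 12.78, 12.96 and 13.24 on GD15, a change of -3.48 ± 0.25 (adjusted p = 3.2e-06). Both are parts of 1 pathway and moved in opposite directions. Of 27 genes of this list on the array 15 passed the filter, 4 rose and 2 fell.

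Extracellular matrix genes gave more rises than falls, and most were not called. Of 31 on the array 26 passed the filter, 10 rose, 6 of them with every GD15 array under 100, and 1 fell, with a median change of 0.88. COL1A2, a chain of type I collagen, measured 9.62, 9.64 and 10.30 on GD26, against 4.71, 4.43 and 4.35 on GD15, at least 9.26-fold higher. VCAN, a large proteoglycan of growing tissue, measured 10.37, 9.16 and 9.50 on GD26, against 5.30, 5.20 and 4.45 on GD15, at least 8.19-fold higher. THBS1, which restrains vessel growth, measured 11.94, 10.96 and 10.83 on GD26, against 6.76, 6.84 and 6.40 on GD15, a change of 4.58 ± 0.29 (adjusted p = 1.2e-06). LOX, which cross-links collagen, and POSTN, a matrix protein of stroma, were at least 2.47-fold and at least 2.44-fold higher. The proteoglycans DCN and LUM were not called, with changes of 0.27 ± 0.15 and 0.16 ± 0.21. SPARCL1, which counters adhesion, changed by -1.69 ± 0.17 (adjusted p = 2.4e-05). Matrix proteases and their inhibitors rose where called: 14 of 22 on the array passed the filter, 7 rose and none fell. For 3 of the 7 rises every GD15 array lay under 100. MMP7, a protease of glandular epithelium, measured 9.52, 9.91 and 10.26 on GD26, against 5.15, 5.38 and 5.80 on GD15, at least 9.52-fold higher. The inhibitor TIMP3 measured 9.27, 9.11 and 9.33 on GD26, against 3.91, 4.53 and 3.91 on GD15, at least 6.04-fold higher, and TIMP1 rose by 2.23 ± 0.18. MMP2 and TIMP2 changed by 0.30 ± 0.25 and -0.25 ± 0.17 and were not called.

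Smooth muscle and adhesion genes gave mostly rises among their calls. Of 25 smooth muscle genes on the array 14 passed the filter, 7 rose and none fell. For 2 of the 7 rises every GD15 array lay under 100. The summed intensity of the 14 genes was 36189 to 37793 on GD26, against 28980 to 33117 on GD15. MYL9, a myosin light chain, measured 10.05, 10.39 and 10.26 on GD26, against 6.70, 6.43 and 6.73 on GD15, a rise of 3.62 ± 0.17 (adjusted p = 2.0e-07), and TAGLN rose by 1.71 ± 0.23. ACTG2, a smooth muscle actin, rose on its brighter probe set and fell on the other. DES and MYLK, defining genes of muscle, did not pass the filter, and TPM1 and CALD1 changed by -0.60 and -0.73 without a call. The share of myometrium in the samples was not tested. Of 23 integrin and adhesion genes on the array 17 passed the filter, 5 rose and 1 fell. ITGA5, the alpha chain of the fibronectin receptor, measured 8.39, 8.46 and 8.13 on GD26, against 3.93, 3.98 and 3.99 on GD15, at least 3.21-fold higher, and FLNA and TLN1, which tie integrins to actin, rose by 2.11 ± 0.19 and 1.40 ± 0.15. ITGB3, the beta chain of an osteopontin receptor, measured 4.0, 5.59 and 5.20 on GD26, against 7.72, 7.85 and 8.07 on GD15, at least 2.36-fold lower, a call that is lost when values under 100 are set to 100. Its partner ITGAV changed by -0.92 ± 0.20 and was not called.

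Nutrient transporters changed by type. Of 29 on the array 18 passed the filter, 10 rose and 3 fell, with a median change of 1.44. Every GD15 array lay under 100 for 5 of the rises, and every GD26 array for 2 of the falls. Sugar carriers differed: SLC2A3, a high-affinity glucose carrier, measured 11.49, 11.42 and 11.37 on GD26, against 6.88, 6.91 and 7.27 on GD15, a change of 4.41 ± 0.17 (adjusted p = 6.9e-08). SLC2A5, a fructose carrier, measured 10.10, 9.25 and 9.24 on GD26, against 2.67, 2.94 and 3.12 on GD15, at least 7.40-fold higher. SLC5A1, which takes up glucose with sodium, measured 3.20, 2.79 and 4.85 on GD26, against 9.48, 9.58 and 9.63 on GD15, at least 7.57-fold lower. SLC2A1, the common glucose carrier, was bright on both days, with 12.66, 12.68 and 12.56 on GD26 and 12.89, 13.09 and 13.20 on GD15, and was not called, so that carriers of 1 sugar differed in direction. Among amino acid carriers, SLC3A1 rose by at least 14.3-fold and its partner for cystine, SLC7A9, fell by at least 3.38-fold. LPL, which releases fatty acids from lipoproteins, rose by at least 4.55-fold.

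Iron and heme genes rose more often than they fell. Of 22 on the array 17 passed the filter, 8 rose and 2 fell, with a median change of 0.94. For 4 of the 8 rises every GD15 array lay under 100. TFRC, the transferrin receptor, measured 9.93, 8.64 and 9.69 on GD26, against 2.29, 2.33 and 2.18 on GD15, at least 6.84-fold higher. HMOX1, which breaks down heme, measured 10.67, 11.19 and 11.05 on GD26, against 5.33, 5.75 and 5.48 on GD15, at least 20.1-fold higher. SLC25A37, which imports iron into mitochondria, was at least 9.30-fold higher. SLC11A2, a transporter of free iron, changed by -2.54 ± 0.34 (adjusted p = 1.4e-04), and HMOX2, the constant heme oxygenase, by -2.14 ± 0.24 (adjusted p = 4.1e-05). The ferritin chains FTH1 and FTL were bright on both days and were not called. Of the other ion and water transporters, 17 of 30 passed the filter, 3 rose and 4 fell. Among them ATP1B1, a chain of the sodium pump, changed by -2.13 ± 0.22, and SLC39A2, a zinc importer, measured 11.02, 10.75 and 10.95 on GD26, against 13.21, 13.32 and 13.25 on GD15.

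Metabolic pathways showed changes at single steps. In serine synthesis all 3 enzymes fell: PHGDH measured 6.13, 6.87 and 6.42 on GD26, against 9.81, 10.08 and 9.87 on GD15. PSAT1 measured 7.78, 6.98 and 7.62 on GD26, against 13.20, 13.28 and 13.66 on GD15, and PSPH 12.75, 12.82 and 12.79 on GD26, against 14.26, 14.36 and 14.45 on GD15. Their changes were -3.45 ± 0.25, -5.92 ± 0.23 and -1.57 ± 0.15 (adjusted p = 3.1e-06, 6.9e-08 and 1.7e-05), with the middle enzyme changing most. ASNS, which makes asparagine, and AHCY of the methyl cycle rose by 1.48 and 1.94. In cholesterol synthesis, 20 of 21 genes on the array passed the filter, 7 rose and 3 fell. HMGCS1, an early enzyme, rose by 1.62 ± 0.22, FDPS and FDFT1, which build squalene, changed by -2.00 ± 0.16 and -2.11 ± 0.17, and TM7SF2, a late reductase, was at least 6.56-fold higher. CYP26A1, which clears retinoic acid, measured 2.71, 2.97 and 3.67 on GD26, against 8.26, 8.25 and 9.07 on GD15, at least 3.68-fold lower. In prostaglandin synthesis PTGS2, the inducible cyclooxygenase, changed by -1.44 ± 0.28 (adjusted p = 0.0013), a call that was lost without GD15 array 3 (-1.35) or GD26 array 2 (-1.16), while PTGES, which forms prostaglandin E, measured 10.29, 9.59 and 9.56 on GD26, against 7.22, 6.99 and 7.49 on GD15, a rise of 2.58 ± 0.27 (adjusted p = 3.1e-05). CBR2, a further carbonyl reductase, was at least 10.8-fold lower, opposite to CBR1.

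In glycolysis 19 of 30 genes on the array passed the filter, 6 rose and 4 fell, and ENO1 and LDHA, which act at the end of the pathway, rose by 1.61 ± 0.18 and 1.42 ± 0.18. PKM, which acts between them, was at least 1.47-fold lower, a call that is lost when values under 100 are set to 100 (-0.56) and with cyclic loess (-0.10). PDK4, which blocks the entry of pyruvate into the mitochondrial cycle, measured 6.22, 4.65 and 6.02 on GD26, against 10.69, 10.58 and 10.04 on GD15, at least 13.9-fold lower. SOD3, the secreted superoxide dismutase, measured 12.38, 13.32 and 13.42 on GD26, against 9.35, 9.84 and 9.92 on GD15, a rise of 3.34 ± 0.30 (adjusted p = 1.2e-05). The metallothionein MT3 was at least 9.94-fold lower. Cell division genes were called in part: 18 of 41 passed the filter, 6 rose, all with every GD15 array under 100, and 1 fell. CCNB1, the mitotic cyclin, measured 9.13, 9.01 and 8.90 on GD26, against 4.90, 5.19 and 5.21 on GD15, at least 5.17-fold higher, and TOP2A, which untangles DNA in dividing cells, was at least 5.12-fold higher. CKS2, a partner of cyclin-dependent kinases, measured 11.60, 11.81 and 11.72 on GD26, against 13.65, 13.77 and 13.60 on GD15, a change of -1.96 ± 0.16 (adjusted p = 6.8e-06). PCNA, the clamp of DNA replication, changed by 0.62 ± 0.20 without a call.

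Ribosomal proteins and the respiratory chain gave few calls. Ribosomal proteins gave no call among 56 of 59 genes past the filter and had a median change of -0.48, and the respiratory chain gave 1 rise and 1 fall among 57 of 58, with a median of -0.32. Of 24 epithelial and junction genes on the array 19 passed the filter, 4 rose and 3 fell, with CLDN10, a claudin that forms ion pores, at 4.51, 3.81 and 4.82 on GD26, against 10.55, 10.35 and 9.88 on GD15, at least 12.2-fold lower. SPINT1, an inhibitor of surface proteases, measured 9.97, 10.09 and 10.04 on GD26, against 5.75, 6.02 and 6.04 on GD15, at least 10.5-fold higher. EPCAM, KRT8 and CLDN4 were bright on both days without a call. Of 35 endothelial and angiogenic genes on the array 18 passed the filter, 3 rose and 1 fell: the endothelial markers PECAM1, CDH5 and VWF changed by 0.55, -0.16 and 0.06 without a call, while ENG, a coreceptor of the growing endothelium, was at least 6.39-fold higher and EPAS1, a hypoxia-regulated transcription factor, rose by 2.22 ± 0.24. The gene that fell was CLDN5, a further claudin, with 5.77, 5.19 and 5.29 on GD26, against 7.21, 7.29 and 7.35 on GD15. It was at least 1.56-fold lower, a change of -0.64 with values under 100 set to 100. Of 14 reference genes 4 rose. ACTB, a common reference, gave 15.14, 15.00 and 15.06 on GD26, against 10.13, 12.59 and 13.10 on GD15, on its brighter probe set, a rise of 3.13 ± 0.61 (adjusted p = 0.0015), and 12.11, 13.25 and 13.60 on GD26, against 12.90, 13.22 and 13.20 on GD15, on the other, which was not called. RPLP0 and SDHA changed by -0.06 ± 0.14 and -0.09 ± 0.19.

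**Figure D4:**
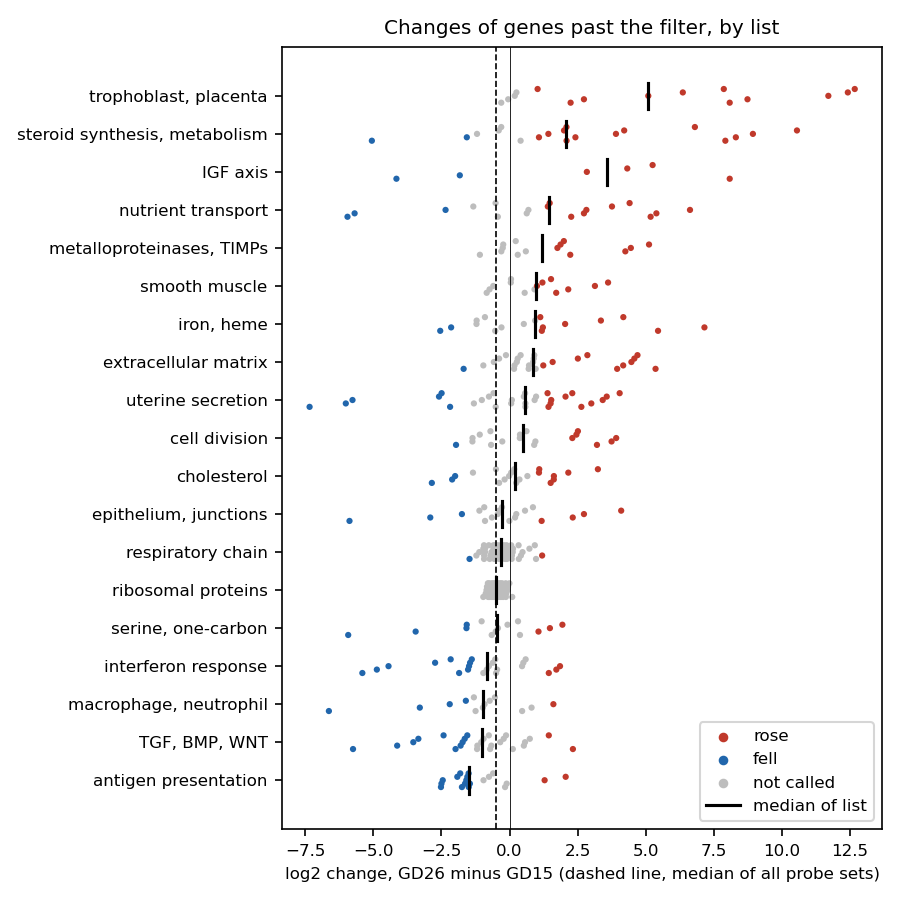
Log2 change, GD26 minus GD15 (horizontal axis), of the genes past the filter in 19 lists, 1 point per gene; red rose, blue fell and grey was not called, and the short black bars are list medians. The dashed line is the median of all probe sets (-0.51). Trophoblast, steroid and IGF genes reach furthest to the right, ribosomal proteins lie close to the dashed line, and antigen presentation lies mostly to its left.

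A last list held genes also measured by RT-PCR. Of these, 11 were found on the array by symbol and 10 passed the filter. HSD17B2, MMP7, THBS1, LIF and HMOX1 rose and S100A9, STC1, BMP4 and ITGB3 fell, with the array values given above. MSX1, a homeobox factor of the endometrial epithelium, measured 8.54, 9.21 and 8.63 on GD26, against 9.42, 9.54 and 9.42 on GD15, a change of -0.67 ± 0.20 that was not called. The study chose most of these genes from its array results, and STC1 and ITGB3 for their known roles, so that counts over the list are no independent evidence. It reports a common pattern of STC1 and ITGB3 in both breeds, short of significance on its arrays and found by RT-PCR. Here the array changes in Meishan gilts were -2.72 for STC1, a called fall, and 0.37 for ITGB3, without a call. Both genes are among the breed differences given below, and that of ITGB3 is lost when values under 100 are set to 100.

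The change was compared with that of Meishan gilts, by subtracting the change in Meishan gilts from that in Yorkshire gilts, with limma fitted to all 6 groups of breed and day. The Yorkshire change was higher for 675 of the 9117 probe sets (7.40%) and lower for 923 (10.1%). These probe sets had passed the filter on Yorkshire arrays alone, so that a gene bright only in Meishan gilts could not enter. IGF2, TFRC, ITGA5 and PGLYRP1, given below, passed it through Yorkshire GD26 alone. IGF2, read from its brightest probe set, had the largest difference among the genes named here. In Meishan gilts that probe set measured 6.10, 5.08 and 4.85 on GD26, against 4.65, 4.78 and 4.32 on GD15, all under 100. The rise of this probe set was thus seen in Yorkshire arrays alone, and Meishan values of the other IGF2 probe sets are not given here. The difference was 7.32 ± 0.42 (adjusted p = 1.73e-08). TFRC, COL1A2 and ITGA5, which rose in Yorkshire gilts, changed by 0.17, 0.71 and -0.12 in Meishan gilts, with breed differences of 6.98, 4.65 and 4.48, or 2.77, 3.21 and 1.68 with values under 100 set to 100. PGLYRP1, which binds bacterial cell walls, measured 11.19, 11.30 and 11.21 on GD26, against 2.23, 2.18 and 2.23 on GD15 in Yorkshire gilts, and 6.22, 5.13 and 2.32 on GD26, against 2.23, 2.18 and 2.20 on GD15 in Meishan gilts. BPI, which permeabilizes bacteria, measured 13.10, 12.21 and 12.68 on GD26, against 2.55, 2.63 and 2.63 on GD15 in Yorkshire gilts, and 10.20, 9.05 and 5.66 on GD26, against 2.80, 2.77 and 2.63 on GD15 in Meishan gilts. The Meishan GD26 arrays of both genes were far apart and array 3 was the lowest. HBE1 had the same order, with 12.64, 10.96 and 6.64 on GD26 in Meishan gilts, and a breed difference of 4.08 ± 1.29 (adjusted p = 0.0215). SOD3 rose in Yorkshire gilts but changed by -1.17 in Meishan gilts, where it measured 6.69, 7.97 and 7.25 on GD26, against 8.62, 8.35 and 8.45 on GD15.

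For each of the 5 genes with the largest lower change once values under 100 were set to 100, all Yorkshire GD15 arrays lay above all Meishan GD15 arrays. The ranked difference subtracts the Yorkshire GD15 level and adds the Meishan GD15 level. The choice of genes therefore favours this order, which is no separate evidence. SERPINB7, an intracellular protease inhibitor, measured 6.97, 6.19 and 7.04 on GD26, against 11.04, 11.16 and 11.48 on GD15 in Yorkshire gilts, and 6.25, 6.03 and 7.06 on GD26, against 6.12, 6.90 and 7.38 on GD15 in Meishan gilts. The GD26 levels of the breeds overlapped and the GD15 levels did not. S100A9 had 6.32, 6.69 and 6.20 on GD26, against 9.72, 9.38 and 8.22 on GD15 in Meishan gilts, and a breed difference of -3.93 ± 0.50 (adjusted p = 3.77e-05). For STC1 the Meishan GD26 arrays stayed high, at 9.39, 9.18 and 9.11, against 11.96, 11.94 and 11.92 on GD15, and the difference was -3.29 ± 0.43 (adjusted p = 4.87e-05). ANKRD29 and C17H20orf85 differed by -3.74 and -2.94. In antigen presentation 1 gene (CD74) had a higher and 4 had a lower change in Yorkshire gilts, and among the 19 genes past the filter 12 fell in Yorkshire gilts and 1 (TAP1) in Meishan gilts. The breed difference itself was not called for the other 14 genes. For several genes of this list Meishan GD15 array 3 lay well below arrays 1 and 2. In Meishan gilts SLA-DRA measured 11.29, 11.71 and 11.74 on GD26, against 12.54, 12.02 and 10.80 on GD15. SLA-DMB measured 8.84, 9.40 and 9.59 on GD26, against 9.97, 10.06 and 8.28 on GD15 in these gilts. How far this array lowered the count of Meishan falls was not tested. Trophoblast genes split by gene: the breed differences of PLET1, DPPA5 and PPAG3 were 0.13, 0.37 and 0.02 and were not called, while PLAC1 and HAND1 differed by 3.87 and 3.71, or by 2.47 and, without a call, 0.91 with values under 100 set to 100. The steroid enzymes STAR and CYP11A1 differed by -0.26 and -0.61, without a call.

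**Figure D5:**
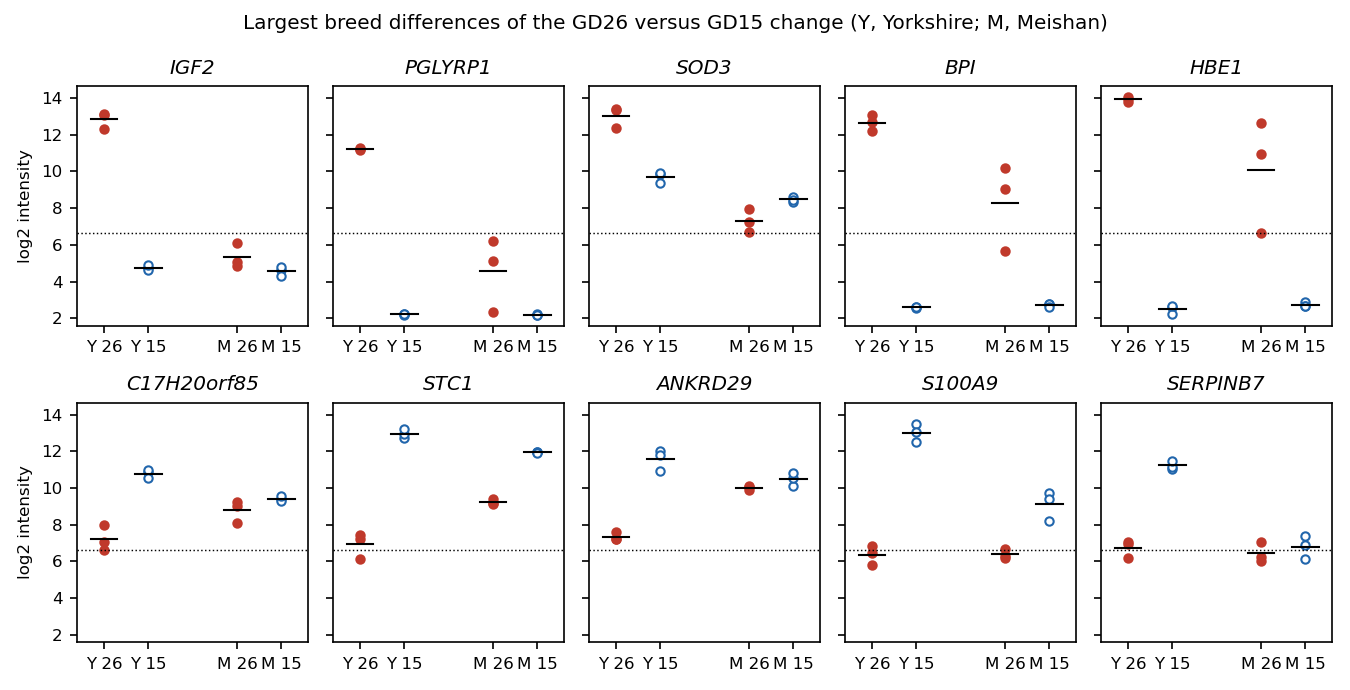
Log2 intensity (vertical axis) of the 5 genes with the largest higher change (upper row) and the 5 with the largest lower change (lower row) in Yorkshire than in Meishan gilts, ranked after values under 100 were set to 100, 1 point per array, with filled points for GD26 and open points for GD15, Yorkshire (Y) left of Meishan (M); bars are group means and the dotted line marks an intensity of 100. IGF2 lies above the dotted line in Yorkshire GD26 arrays alone, and Meishan GD26 arrays of BPI and HBE1 spread over more than 4 log2.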

How the data were processed

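Endometrial RNA was hybridized to Affymetrix porcine GeneChips, and the submitters' processing notes name RMA and GCRMA. The deposited values are log2 intensities per probe set, which the authors had preprocessed in Bioconductor (affy, GCRMA). The labels describe areas from the middle of each uterine horn, and the study describes pools over corresponding attachment sites of both gilts. Of 24123 probe sets, 124 controls were left out. Gene symbols came from the platform annotation, with 10069 probe sets naming 1 gene, 198 several and 13732 none, and unnamed probe sets were counted but not named. A gene was read from its brightest probe set, and 141 of the 423 genes with several probe sets and a call had the same call on all and 20 had opposite calls, among them ACTG2.

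Linear models were fitted with limma 3.58.1 (lmFit and eBayes, R 4.3.3) to the 9 Yorkshire arrays after the filter, as deposited and after median centring, and breed differences came from 1 fit over the 18 arrays. P-values were adjusted by Benjamini-Hochberg over the 9117 probe sets. The test was checked on simulated data. Figures were drawn with matplotlib 3.10.9. Array number limits the precision, and no counts or depth exist. Named genes were the 10 largest called rises and falls after setting values under 100 to 100, up to 4 called genes per list with others needed to describe a role, the RT-PCR genes, and the 5 largest breed differences in each direction with the same floor; further genes were named after their values were seen. Members and lists were chosen with earlier results of these data known. Alternatives covered scaling, filter, arrays in the fit, replicate block, variance trend, adjustment, fold threshold, floor and leaving out each array.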

Additional observations from a re-analysis of the deposited data

Results flagged for a closer look

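Of the 192 genes named here, 81 had a GD26 versus GD15 change that differed between the breeds by a test of the difference itself (limma, 1 fit over the 6 groups of breed and day), with 47 higher and 34 lower in Yorkshire gilts. Over all 9117 probe sets past the filter the change was higher for 7.40% and lower for 10.1%. The named genes were chosen in part for large changes and large breed differences, so that this count and its split describe only them. All values are log2 changes of Yorkshire minus Meishan gilts, and no cause of a difference was tested. Levels under an intensity of 100 have no order, so that differences which rest on them have no firm size, and their values with levels under 100 set to 100 are given after the others.

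Among growth factor and conceptus genes the change was higher in Yorkshire gilts for IGF2 (7.32), TFRC (6.98), IGFBP5 (3.99), IGF1R (3.26), IGFBP2 (1.11), LIF (4.0), HBE1 (4.08), ALAS2 (2.34), PLAC1 (3.87), HAND1 (3.71), TEAD4 (1.61) and GATA3 (1.43). Among matrix, adhesion and vessel genes it was higher for COL1A2 (4.65), POSTN (4.61), VCAN (1.23), ITGA5 (4.48), TLN1 (1.6), FLNA (1.53), MYL9 (2.30), TIMP3 (1.90), ENG (3.22) and EPAS1 (1.32). Secreted and defense genes that were higher were PGLYRP1 (6.67), SOD3 (4.51), BPI (4.49), SERPINA3-2 (3.95), SPINT1 (3.45), CD74 (2.89), APOE (2.37), C1QA (1.82), CFB (1.75) and GUSB (1.01). Enzymes, carriers and other genes that were higher were SULT1E1 (3.07), CYP26A1 (2.48), SLC25A37 (2.00), CBR1 (1.84), HSD3B1 (1.82), SLC2A3 (1.61), PHGDH (1.61), MSX1 (1.43), SLC3A1 (1.33), FKBP4 (1.30), PTGES (1.26), AQP8 (1.25), TMEM45A (1.18), TOP2A (1.17) and SLC2A5 (1.13). Of these, CYP26A1 and PHGDH fell in Yorkshire gilts, by less than in Meishan gilts.

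The change was lower in Yorkshire gilts for the immune genes S100A9 (-3.93), IL15 (-2.62), GBP2 (-2.38), SLA-DMB (-2.29), GBP1 (-2.22), IL11RA (-2.12), SLA-6 (-1.65), CFD (-1.62) and TLR4 (-1.59). It was lower for the signalling genes DKK1 (-3.05), BMP4 (-2.83), FST (-2.54), BMPR1B (-1.80), FKBP5 (-1.68) and ID1 (-1.58). Epithelial, matrix and secreted genes that were lower were SERPINB7 (-4.13), CLDN10 (-4.0), ITGB3 (-3.32), STC1 (-3.29), MUC1 (-1.84), MMP7 (-1.70), CLU (-1.54) and SPARCL1 (-1.41). Enzymes, carriers and other genes that were lower were ANKRD29 (-3.74), SLC7A9 (-3.69), NAAA (-3.29), C17H20orf85 (-2.94), CBR2 (-2.67), CDO1 (-2.38), PDK4 (-2.19), LOC100526084 (-1.99), PKM (-1.99), SLC11A2 (-1.84) and CKS2 (-1.41). MMP7 rose in Yorkshire gilts, by less than in Meishan gilts.

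The breed difference of 19 of the 81 genes was no longer called when 1 of the arrays was left out. Their values nearest to 0 among those fits were 0.89 for AQP8, 0.88 for IGFBP2, 0.88 for VCAN, 0.84 for GUSB, 0.84 for TMEM45A, 0.81 for SLC2A5, 0.98 for SLC3A1 and 0.98 for TOP2A, and -2.12 for CDO1, -1.42 for CFD, -1.28 for CKS2, -1.10 for CLU, -2.04 for GBP1, -1.72 for GBP2, -1.17 for ID1, -1.37 for MMP7, -1.70 for PDK4, -1.52 for PKM and -1.31 for SPARCL1. Leaving out Meishan GD26 array 3 ended the most calls, 13, and the fewest, 1, were lost without Meishan GD26 array 1.

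With values under 100 set to 100 the sign turned for 5 genes, FST (0.36), IL11RA (0.14), SLC7A9 (0.24), PKM (0.03) and TOP2A (-0.21), so that the direction of these 5 depends on levels that have no order. The size fell by over 1.5 times for 22 more, and for 15 of these the difference was no longer called. The 15 were ALAS2 (0.94), HAND1 (0.91), POSTN (0.81), SERPINA3-2 (0.78), VCAN (0.71), SULT1E1 (0.42), TMEM45A (0.40), SLC3A1 (0.36), IGF1R (0.15), ITGB3 (-1.28), BMP4 (-1.25), PDK4 (-1.17), BMPR1B (-0.69), IL15 (-0.58) and NAAA (-0.45). The differences of TFRC (2.77), PLAC1 (2.47), LIF (1.82), ITGA5 (1.68), SLC25A37 (1.19), CFB (1.01) and CLDN10 (-1.74) were still called. AQP8 (0.96) and MMP7 (-1.24) moved less and were no longer called.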

How the results depend on the processing

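Scaling moved the balance of the calls. Values as deposited alone gave 1324 rises and 2987 falls, median centring alone 1742 and 2026, quantile normalization 1777 and 2081, and cyclic loess 1791 and 1401, so that falls made up 69.3%, 53.8%, 53.9% and 43.9% of the calls. The median change was -0.13 with centring, -0.19 with quantile normalization and -0.008 with cyclic loess. Without a filter 2187 of 23999 probe sets rose and 3583 fell. Bonferroni adjustment left 578 rises and 416 falls, and setting values under 100 to 100 left 1122 rises and 1303 falls. Leaving out each array in turn gave 1283 to 1354 rises and 1935 to 2084 falls. The breed difference was lower for 1727 probe sets as deposited alone, higher for 1025 with quantile normalization, higher for 1134 and lower for 612 with cyclic loess, higher for 170 and lower for 86 with Bonferroni adjustment, and lower for 508 with values under 100 set to 100. Without 1 array it was higher for 597 to 718 and lower for 762 to 1130, the last without Yorkshire GD26 array 1. The cause of these shifts was not tested.

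Same-numbered arrays of the days correlated in their deviations at 0.28, -0.07 and 0.19, and arrays of unlike number at -0.31 to 0.19. With 3 arrays per day these values cannot settle whether the numbers pair samples, and arrays were not treated as pairs. A fit with the replicate number as a block gave 1326 rises and 2037 falls, with breed differences of 685 and 944. Of the 152 genes named here with a call, 102 kept it under every alternative in which they were tested, 48 lost it with Bonferroni adjustment and 4 lost it without 1 array, and none reversed. With GD26 read from array 1 alone, chosen after seeing the data, 1430 rose and 1848 fell, and the calls of FKBP4, HSD17B8 and PTGS2 were lost. Of the 81 breed differences, 61 were lost with Bonferroni adjustment and 22 with values under 100 set to 100. Levels under an intensity of 100 have no order here.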
